A study of Mus musculus with 20 samples.

Results

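The region described here is the stretch of mouse chromosome 2 around Cd44, the gene disrupted in CD44KO mice. Its members were the array probes whose coordinates lay on chromosome 2 between 82.66 and 122.66 Mb, within 20 Mb of a Cd44 probe that starts at 102.66 Mb, with the Cd44 probes and those of 2 other gene symbols left out. This gave 860 of the 41174 probes that were not controls. The members carried 650 gene names, and 217 of the probes belonged to olfactory receptors. The rule used positions and gene names, not measured values.

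Liver and white adipose tissue (WAT) came from male mice, 7 months old, with the strain given as C57BL/6, fed for 21 weeks on food with 35% fat (the high-fat diet, HFD). The 4 groups were WT(HFD) liver, CD44KO(HFD) liver, WT(HFD) WAT and CD44KO(HFD) WAT, with 5 arrays in each and 1 array per RNA sample. The labels do not say which liver and WAT arrays came from the same mouse. The CD44KO line was obtained from another laboratory and was backcrossed to C57BL/6J for many generations, per the study's methods, and the WT(HFD) mice are not described as littermates.

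A mouse line made by gene targeting in embryonic stem cells of 1 strain and then backcrossed to another can keep a piece of the donor strain's chromosome on either side of the targeted gene. Recombination close to the gene is what shortens that piece, so nearby genes tend to travel with the mutant allele. The arrays measure RNA and not genotype, so whether such a piece was present in these mice was not measured. Genes near Cd44 include Pdhx, which encodes a subunit of the pyruvate dehydrogenase complex, Cat, which encodes the peroxisomal enzyme catalase, and Cd59a and Cd59b, neighbouring paralogs that encode inhibitors of the terminal complement complex.

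Each probe is a 60-base oligonucleotide, and several results below turn on single probes of a gene. The first 30 bases of the probes for the 6 flanking genes, and for a pair of cDNA clones that lie between them, are therefore shown in lower case with no base marked. Positions are those of the array's annotation (mm7), and the strand follows the order in which the start and end are given.
Pdhx, brighter probe, chr2:102872637-102872696, minus strand: tgtacatgtactgtagaaatgtgtgatgac
Pdhx, dimmer probe, chr2:102872188-102872247, minus strand: tacaataggaatgaagacagaggaagaaaa
Cat, chr2:103305290-103305349, minus strand: agggcttagcaatcatttaacagaaacatg
Cd59b, brighter probe, chr2:103931786-103931845, plus strand: gttagcctcaaatgctacaactgtttagac
Cd59b, dimmer probe, chr2:103935222-103935281, plus strand: tcaacagtgttggaaactttcggattgtaa
Cd59a, brighter probe, chr2:103965318-103965377, plus strand: agtgagtgggccaggaggattctctttacc
Cd59a, dimmer probe, chr2:103964800-103964859, plus strand: tgtcatggtgagatcattatggaccaatta
AK049434, chr2:104465485-104465544, plus strand: atccctagagatgagataccccaatatgct
AK039524, chr2:104518221-104518280, minus strand: ctgggtttgatctttctttctgaacaacaa
Tcp11l1, first probe, chr2:104541396-104548334, minus strand: aaactaaagggcattaaggaaatagtgcct
Tcp11l1, second probe, chr2:104530812-104530871, minus strand: caggacttccaaaccctcctgttcattgta
Mpped2, first probe, chr2:106718088-106718147, plus strand: gtaaaatgacttctgtttgctcaaaggcca
Mpped2, second probe, chr2:106717871-106717930, plus strand: tggaatgtgagggacggtctacaaactgcc
The first Tcp11l1 probe spans 6939 bases of the annotated chromosome although it is 60 bases long, so it is placed across more than 1 aligned block. No Cd59a probe shared a run of more than 7 bases with a Cd59b probe. This compares probes with each other only, and the match of a probe to the other gene's transcript was not looked at.

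Values are log2 signals minus the 75th percentile of their own array, so 0 is the level of a bright probe, and a difference of 1 on this log2 scale is a doubling. Differences are CD44KO(HFD) minus WT(HFD), and levels of different probes cannot be compared with each other. A probe entered the test of a tissue if 3 or more of the 5 arrays of either genotype marked it as well above background, and the test was limma's, with Benjamini-Hochberg adjustment over all probes tested in that tissue and a threshold of 0.05. Of the members, 440 were tested in liver and 456 in WAT, and 356 passed the filter in neither. Nothing in the labels names the mice behind the arrays, so the p-values measure the spread between these samples. The brightest Cd44 probe differed by -4.21 ± 0.20 (SE) in liver and by -4.57 ± 0.19 in WAT. Summed over the 6 hepatocyte markers, the log2 signal was 10.49 to 11.02 on liver arrays and 0.776 to 5.28 on WAT arrays, and the 6 adipocyte markers gave 8.58 to 9.90 on WAT arrays and 3.01 to 4.97 on liver arrays. The WT(HFD) WAT replicate 1 array stood apart, with 89.5% of its spots well above background against 63.2% to 69.5% on the other WAT arrays, and a median correlation of 0.881 with its group against 0.966 to 0.976 for the other WT(HFD) arrays. WAT differences of the flanking genes and of the members nearest to Cd44 are therefore also given without it.

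In liver, genes on both sides of Cd44 changed in CD44KO(HFD) mice, and the share of probes that changed was highest close to Cd44. Over the 20 Mb on either side, 57 of 440 probes tested had an adjusted p under 0.05, 22 lower and 35 higher, which is 12.95% beside 13.6% of all probes tested (5.75% lower and 7.85% higher) and 13.14% on the rest of chromosome 2. The region as a whole therefore had no larger share than the array. Within 2 Mb of Cd44 the count was 14 of 46 probes, or 30.43%, 7 lower and 7 higher. From 2 to 5 Mb it was 6 of 19, from 5 to 10 Mb 7 of 51 (13.73%), and from 10 to 20 Mb 30 of 324 (9.26%). Between 2 and 5 Mb on the side of lower coordinates the array has 0 probes, so the second of these bins lies on the other side only. The sides differed. On that of lower coordinates, 3 of 13 probes were called within 2 Mb (23.08%) and 4 of 19 from 5 to 10 Mb (21.05%). For higher coordinates the counts were 11 of 33 (33.33%) and 3 of 32 (9.38%). Within 2 Mb, the genotypes did not overlap for 7.69% of probes on the lower side and 27.27% on the higher, beside 11.7% of all probes. The 46 probes within 2 Mb carry 34 gene names, and 2 probes of a gene are not separate observations.

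**Figure D1:**
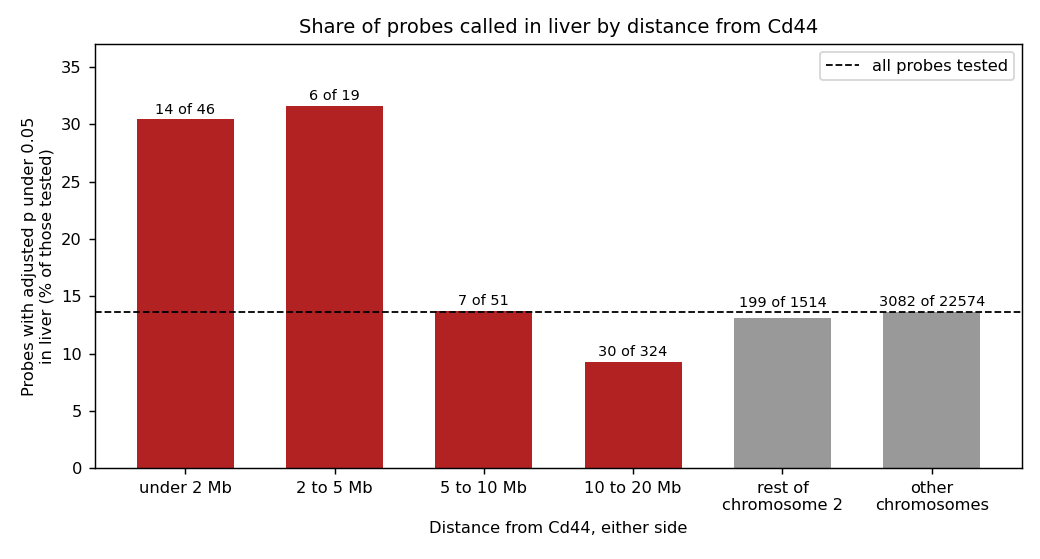
Bars give the percentage of tested probes with a limma adjusted p under 0.05 in liver, by distance from Cd44 on either side (Mb, red) and on the rest of the genome (grey), with counts above the bars and the dashed line at 13.6% for all probes tested. Both bins under 5 Mb stand near 30%, while the 5 to 10 Mb bin (13.73%) is next to the line and the 10 to 20 Mb bin (9.26%) is below it.

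The share within 2 Mb stayed above that of all probes whichever array was left out. It was 19.57% to 28.89% over the 10 reduced sets, beside 3.79% to 19.20% of all probes in them. The counts behind these shares moved more: the region's 57 calls became 21 without WT(HFD) liver replicate 2, 34 and 35 without WT(HFD) replicates 1 and 5, 30, 34, 27 and 32 without CD44KO(HFD) replicates 1, 2, 4 and 5, and 75 without CD44KO(HFD) replicate 3. The 14 calls within 2 Mb became 9 without WT(HFD) liver replicate 2 or 5 or without CD44KO(HFD) liver replicate 1, 2 or 5. With normexp background correction 5 of 46 probes within 2 Mb were called (10.87%), beside 2.64% of all probes. No test compared the bins, and the part that a carried chromosome piece has in this pattern was not tested.

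**Figure D2:**
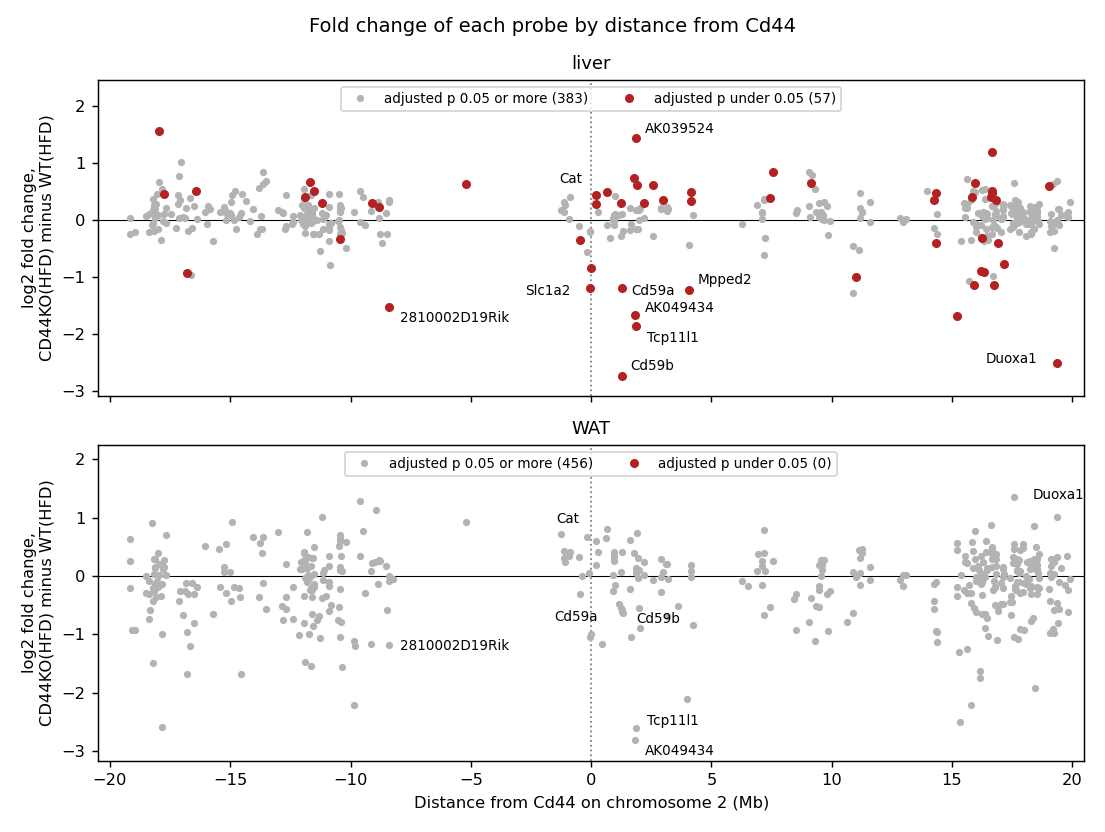
Each point is a probe tested in liver (top) or WAT (bottom), with its distance from Cd44 (Mb) on the x axis and its log2 fold change, CD44KO(HFD) minus WT(HFD), on the y axis. Red points have an adjusted p under 0.05. In liver the labelled decreases within 2 Mb include Cd59b (-2.72) and Cd59a (-1.19), and the fitted values of Tcp11l1 (-1.85) and AK049434 (-1.67), whose CD44KO(HFD) arrays were not well above background, and in WAT no probe of the region passed the threshold.

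Cd59b showed the largest change of the region in liver. Its brighter probe read -0.18, 0.21, 0.29, 0.48 and 0.26 on the WT(HFD) arrays and -2.56, -2.80, -2.11, -2.82 and -2.28 on the CD44KO(HFD) arrays. The genotypes did not overlap, and the gap between them was several times the spread within either. The difference was -2.72 ± 0.17 (SE), a 6.61-fold decrease (limma adjusted p = 4.56e-05, exact two-sided permutation p = 0.0079, the smallest that relabelling 5 against 5 arrays allows). In WAT the same probe was lower to start with, at -2.14 ± 0.42 (SD, n = 5) in WT(HFD) and -2.75 ± 0.22 in CD44KO(HFD). The WAT difference of -0.62 ± 0.22 (SE) did not pass the threshold (limma adjusted p = 0.248, with -0.65 and 0.235 without replicate 1 of WT(HFD)) and was 0.11 after quantile normalization. The change in liver exceeded that in WAT by -2.11 ± 0.28 (SE) on the log2 scale (limma interaction, adjusted p = 0.00604). The dimmer Cd59b probe was well above background on 1 of 10 liver arrays and was not tested; it read -4.85 ± 0.21 (SD, n = 5) in WT(HFD) and -6.65 ± 0.41 in CD44KO(HFD) liver, without overlap, which as a bound is at least 1.04-fold lower. In bulk tissue, fewer cells that express a gene and less RNA in each such cell cannot be told apart.

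The probes of its neighbour Cd59a disagreed. The brighter probe read 3.80, 3.98, 4.17, 4.18 and 4.18 in WT(HFD) liver and 2.82, 2.84, 2.93, 2.86 and 2.91 in CD44KO(HFD) liver. No array of either genotype reached the range of the other, and the difference was -1.19 ± 0.09 (SE), a 2.28-fold decrease (limma adjusted p = 0.000222). The dimmer probe, whose annotated position is less than 1 kb away, was at 1.62 ± 0.22 (SD, n = 5) in WT(HFD) and 1.72 ± 0.15 in CD44KO(HFD) liver, a difference of 0.10 ± 0.12 (SE, limma adjusted p = 0.585). In WAT the brighter probe differed by -0.58 ± 0.20 (SE, adjusted p = 0.241) and the dimmer one by 0.41 ± 0.19 (adjusted p = 0.342), so neither passed. Without WT(HFD) WAT replicate 1, which read 2.88 where the other WT(HFD) WAT arrays read 3.48 to 3.81, the brighter probe differed by -0.74 (limma adjusted p = 0.0995), without overlap, and the dimmer one by 0.30 (adjusted p = 0.430).

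Cat and Pdhx, the metabolic genes on the side of higher coordinates, were higher in CD44KO(HFD) liver. Cat read 6.19, 6.32, 6.73, 6.60 and 6.36 in WT(HFD) and 6.80, 7.03, 6.60, 7.20 and 7.02 in CD44KO(HFD) liver. The genotypes overlapped, since CD44KO(HFD) replicate 3 lay among the WT(HFD) arrays. The difference was 0.49 ± 0.14 (SE), or 1.41-fold (limma adjusted p = 0.0411), and 3 of 10 sets with an array left out kept the adjusted p under 0.05. In WAT, Cat read 3.87, 4.16, 4.003, 4.14 and 4.20 in WT(HFD) and 4.99, 4.59, 4.81, 5.06 and 4.97 in CD44KO(HFD). There the genotypes did not overlap, yet the difference of 0.81 ± 0.14 (SE) did not pass after adjustment over all probes (limma adjusted p = 0.127), nor did that of 0.76 without WT(HFD) replicate 1 (adjusted p = 0.0817). The liver and WAT changes of Cat differed by -0.32 ± 0.19 (SE, limma interaction adjusted p = 0.428).

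Both Pdhx probes moved the same way in liver. The brighter one read 1.67, 1.81, 1.64, 1.82 and 1.83 in WT(HFD) and 2.21, 2.21, 2.05, 2.38 and 2.14 in CD44KO(HFD), a difference of 0.45 ± 0.08 (SE, limma adjusted p = 0.0133) that passed in each of the 10 reduced sets. The dimmer one rose by 0.29 ± 0.08 (limma adjusted p = 0.0478), a call that 1 of 10 reduced sets kept and that was lost with the slide as a block (adjusted p = 0.0586). Neither probe's genotypes overlapped in liver. In WAT the brighter probe also separated the genotypes, at 1.17 ± 0.26 (SD, n = 5) in WT(HFD) and 1.76 ± 0.21 in CD44KO(HFD), with a difference of 0.59 ± 0.17 (SE, limma adjusted p = 0.202), whereas the dimmer one overlapped (0.19 ± 0.24, adjusted p = 0.705). Without WT(HFD) WAT replicate 1 these differences were 0.49 (limma adjusted p = 0.185) and 0.40 (adjusted p = 0.271).

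**Figure D3:**
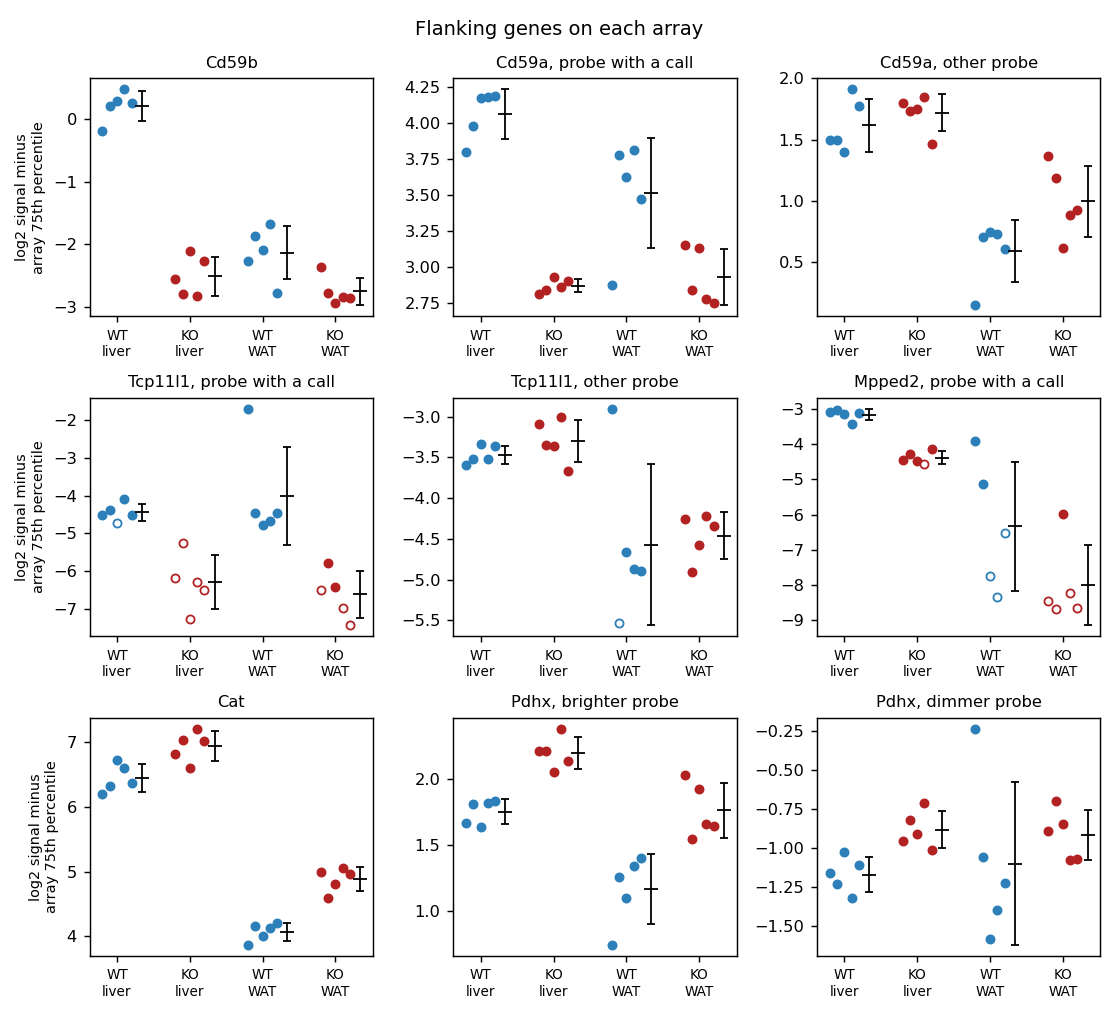
Points are single arrays, with the log2 signal minus the array's 75th percentile on the y axis and the 4 groups on the x axis (WT(HFD) blue, CD44KO(HFD), shortened to KO, red); open points were not well above background, and black marks give the mean ± SD of 5 arrays. The probe with a call is the brighter one of Cd59a and the first one of Tcp11l1 and Mpped2. Cd59b and the brighter Cd59a probe separate the genotypes in liver, the other Cd59a and Tcp11l1 probes do not, and WT(HFD) WAT replicate 1, the leftmost blue WAT point, lies away from its group in several panels.

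Tcp11l1, whose protein resembles the testis protein TCP11, also gave unlike results from its probes. The first probe read -4.50, -4.39, -4.71, -4.09 and -4.51 in WT(HFD) liver and -6.18, -5.25, -7.27, -6.28 and -6.50 in CD44KO(HFD) liver, where no array was well above background. The fitted difference was -1.85 ± 0.30 (SE, limma adjusted p = 0.0106). Measured against the lowest signal that counts as above background, the level was at least 1.38-fold lower. The second probe differed by 0.17 ± 0.12 (SE, limma adjusted p = 0.366). In WAT the first probe read -1.70, -4.47, -4.78, -4.66 and -4.45 in WT(HFD) and -6.51, -5.77, -6.41, -6.97 and -7.43 in CD44KO(HFD), so the genotypes did not overlap there either. Its WAT difference was -2.61 ± 0.58 (SE, limma adjusted p = 0.165) with every array and -2.03 (adjusted p = 0.048) without WT(HFD) replicate 1, and it passed after quantile normalization (adjusted p = 0.0257). The second probe differed by 0.11 ± 0.42 in WAT (adjusted p = 0.899), or by 0.53 (adjusted p = 0.297) without that array.

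AK049434, a cDNA clone placed 1.80 Mb from Cd44 near a Cstf3 probe, followed the same course as the first Tcp11l1 probe. It read -4.26, -4.52, -4.01, -3.31 and -4.33 in WT(HFD) liver and -6.12, -5.62, -5.41, -6.31 and -5.31 in CD44KO(HFD) liver. The change in liver was -1.67 ± 0.26 (SE, limma adjusted p = 0.010), at least 1.76-fold lower, and no CD44KO(HFD) array of either tissue was well above background for it. In WAT it read -1.84, -4.82, -5.25, -5.16 and -5.50 in WT(HFD) and -7.01, -6.56, -7.84, -7.13 and -8.10 in CD44KO(HFD), which as a bound is at least 4.0-fold lower, or at least 2.52-fold lower without WT(HFD) replicate 1. Among the 10 sets with a WAT array left out, that WAT difference passed the threshold only without WT(HFD) replicate 1 (-2.81 ± 0.66, SE, limma adjusted p = 0.168 with it, and -2.15, adjusted p = 0.048 without it).

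Mpped2, which encodes a metallophosphoesterase and lies 4.05 Mb from Cd44, was lower in CD44KO(HFD) liver by its first probe. This probe read -3.09, -3.03, -3.15, -3.44 and -3.10 in WT(HFD) and -4.46, -4.27, -4.47, -4.57 and -4.14 in CD44KO(HFD). The difference was -1.22 ± 0.11 (SE, limma adjusted p = 0.000755), without overlap. The second probe differed by -0.44 ± 0.21 (limma adjusted p = 0.176), and neither was bright enough to be tested in WAT.

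The dim members depended on how background was handled. After normexp correction the liver difference was 0.03 for the first Tcp11l1 probe, -0.04 for AK049434 and -0.18 for the first Mpped2 probe, none of them past the threshold. Cd59b (-1.90), the brighter Cd59a probe (-1.28) and the brighter Pdhx probe (0.37) kept their direction. The calls of the 2 Cd59 probes held (adjusted p = 0.00136 and 0.000464), and those of Cat (adjusted p = 0.324), the brighter Pdhx probe (0.150) and the dimmer one (0.192) were lost. Within each of the 3 liver slides, all of which held both genotypes, Cd59b differed by -3.15, -2.23 and -2.85, the brighter Cd59a probe by -1.23, -1.07 and -1.35, and Cat by 0.66, 0.53 and 0.08. The WAT slides were less balanced. One held 2 arrays of each genotype, another 3 WT(HFD) arrays and 1 CD44KO(HFD) array, and the last CD44KO(HFD) replicates 1 and 4 only. Slide and genotype therefore cannot be fully told apart in WAT.

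Probes of 1 gene often gave unlike results near Cd44. Of the 11 gene names with more than 1 probe tested in liver within 2 Mb, the median gap between the highest and the lowest probe's log2 fold change was 0.38, beside 0.18 over the 5323 such names on the whole array. The gap exceeded 1 for 2 of these 11 names (18.18%), Cd59a and Tcp11l1, beside 1.67% over the array. In 7 of the 11 at least 1 probe was called, and in 3 of those 7 (42.86%) every probe had the same sign, beside 82.25% over the array. Fbxo3, which encodes an F-box protein, had probes at 0.30 (limma adjusted p = 0.047) and -0.28 (adjusted p = 0.084), and Cstf3, which encodes a subunit of the cleavage stimulation factor for mRNA 3′ ends, had probes at 0.74 (adjusted p = 0.012) and -0.15 (adjusted p = 0.338). These are descriptions of few genes, and the sequence of the mice under each probe was not measured.

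The nearest genes on the side of lower coordinates were Slc1a2, which encodes a glutamate transporter, the transcripts 2900019G14Rik and ENSMUST00000080210 (-0.20 in liver, limma adjusted p = 0.643), Pamr1 and Fjx1. One Slc1a2 probe fell by 1.19 ± 0.23 (-1.19, SE, limma adjusted p = 0.0166) in CD44KO(HFD) liver, without overlap. Another, annotated less than 1 kb away and brighter, differed by -0.21 ± 0.25 (adjusted p = 0.604). 2900019G14Rik changed by -0.84 ± 0.23 (limma adjusted p = 0.0398), with overlap, kept its call in 2 of 10 reduced sets and lost it after normexp correction (adjusted p = 0.0612). 2900019G14Rik and ENSMUST00000080210 lie at -0.022 and -0.031 Mb from Cd44, on the same strand as these Slc1a2 probes at -0.035 Mb. Whether they are separate from Slc1a2 was not tested. Pamr1 differed by -0.56 ± 0.20 (adjusted p = 0.0869, and 0.0431 with the slide as a block) in liver and 0.67 ± 0.26 (adjusted p = 0.274) in WAT, and Fjx1 was not above background in liver and differed by -0.01 ± 0.28 in WAT. Without WT(HFD) WAT replicate 1 the WAT differences were 0.61 for Pamr1 (limma adjusted p = 0.331) and 0.18 for Fjx1 (adjusted p = 0.752). On the other side, Apip, which encodes an enzyme of methionine salvage, differed by 0.13 ± 0.08 (adjusted p = 0.281) in liver and 0.42 ± 0.17 (adjusted p = 0.285) in WAT, or 0.34 (adjusted p = 0.349) without that array, while Ehf and Elf5, which encode epithelial transcription factors, were not above background in liver. In WAT the brighter Slc1a2 probe differed by -1.04 (limma adjusted p = 0.591), and another, dim one by 0.05 (adjusted p = 0.973). 2900019G14Rik differed there by -0.99 (adjusted p = 0.519), Ehf by -1.17 (adjusted p = 0.639) and Elf5 by 0.65 (adjusted p = 0.758). Without WT(HFD) WAT replicate 1 these values were, in the same order, -0.13, 0.74, -0.73, -0.47 and 1.77. None passed the threshold, and for Elf5 the genotypes then did not overlap.

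AK039524, a clone 1.85 Mb from Cd44, rose in CD44KO(HFD) liver. It read -4.29, -4.90, -4.18, -4.61 and -4.34 in WT(HFD) and -3.08, -3.08, -3.13, -2.97 and -2.88 in CD44KO(HFD), and 2 of the 5 WT(HFD) arrays were well above background. The difference was 1.43 ± 0.13 (SE, limma adjusted p = 0.00102) and was 0.72 after normexp correction, where the call was lost (adjusted p = 0.0862). WAT levels were -3.32 ± 0.16 (SD, n = 5) and -3.18 ± 0.22, a difference of 0.14 ± 0.15 (SE, adjusted p = 0.646) that was 0.19 (adjusted p = 0.570) without WT(HFD) replicate 1, and the change in liver exceeded that in WAT by 1.29 ± 0.20 (limma interaction, adjusted p = 0.00823). Depdc7, next to Tcp11l1, was higher in liver by 0.62 ± 0.08 (limma adjusted p = 0.004).

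Large changes were not confined to the closest genes. Of the 10 gene names with the largest called changes and no overlap in liver, 6 lay within 2 Mb of Cd44 and 7 within 5 Mb, and 9 of the 10 were lower in CD44KO(HFD) mice. Within 2 Mb lay 34 of the 325 names tested and 13 of the 53 names called, and the region's calls were 22 lower and 35 higher. Several of the 10 are dim. After normexp correction only Cd59b, the brighter Cd59a probe and the Slc1a2 probe (-0.98, limma adjusted p = 0.0222) kept their calls. The 3 names beyond 5 Mb were 2810002D19Rik, Nusap1 and Duoxa1. 2810002D19Rik, at 8.40 Mb on the side of lower coordinates next to Api5, read -1.96, -2.14, -2.40, -2.26 and -2.17 in WT(HFD) and -3.71, -3.75, -3.37, -3.94 and -3.79 in CD44KO(HFD) liver. It differed by -1.53 ± 0.12 (SE, limma adjusted p = 0.000269), or by -0.53 after normexp correction, where the call was lost (adjusted p = 0.238). In WAT it read -1.28, -2.02, -1.93, -1.78 and -2.12 in WT(HFD) and -2.93, -3.54, -2.36, -3.09 and -3.08 in CD44KO(HFD), again without overlap, with a difference of -1.17 ± 0.24 (adjusted p = 0.157) that was -1.04 (adjusted p = 0.102) without WT(HFD) replicate 1. It was -1.78 within the WAT slide with 2 arrays of each genotype and -0.34 within the slide with 1 CD44KO(HFD) array.

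Duoxa1, which encodes the maturation factor of the dual oxidase DUOX1, lay 19.38 Mb away and had a probe whose differences in liver and WAT were of opposite sign. In liver it went from -3.81 ± 0.64 (SD, n = 5) to -6.31 ± 0.78, a difference of -2.50 ± 0.40 (SE, limma adjusted p = 0.0103) that was -0.30 after normexp correction (adjusted p = 0.562), with 1 of 5 CD44KO(HFD) arrays well above background. In WAT it went from 1.13 ± 0.47 (SD, n = 5) to 2.13 ± 0.49, without overlap and with a difference of 1.01 ± 0.29 (SE, adjusted p = 0.204) that was 0.89 (adjusted p = 0.211) without WT(HFD) replicate 1. A second Duoxa1 probe differed by 0.20 (adjusted p = 0.510) in liver and -0.81 (adjusted p = 0.550) in WAT, against the first in both. The interaction for the first probe was -3.51 ± 0.52 (limma adjusted p = 0.00734). Duoxa1 was thus, with Cd59b and AK039524, among the 3 members called in that test of 504, or 0.595%, beside 1.15% of all probes tested. The 3 became 6 without CD44KO(HFD) liver replicate 3 and 5 without WT(HFD) WAT replicate 1 or 4.

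**Figure D4:**
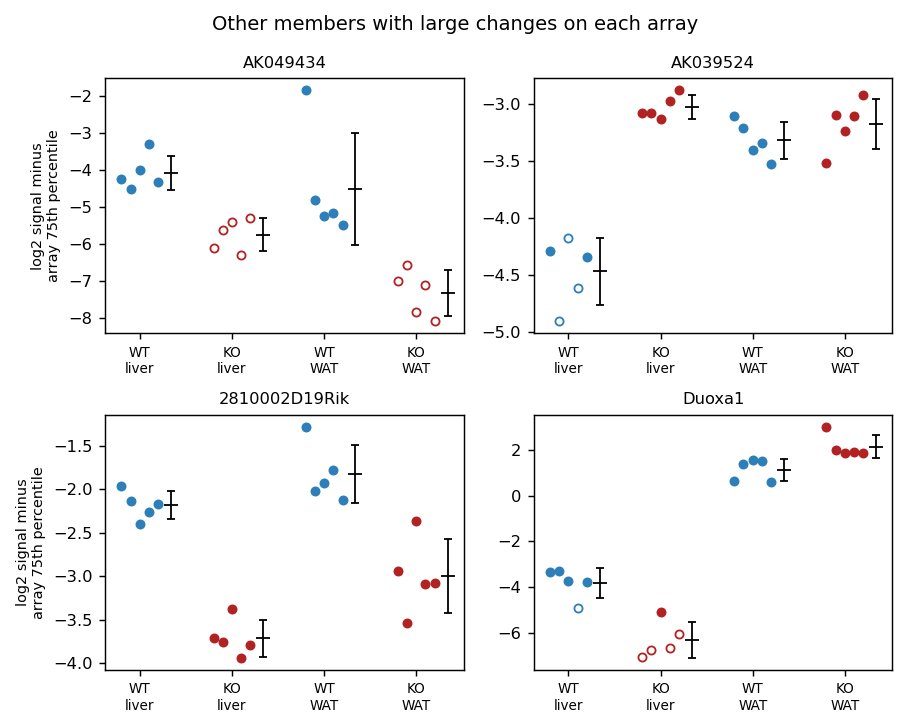
Points are single arrays for 4 members outside the 6 flanking genes, with axes, colours and open points as in the plot of the flanking genes, and black marks at the mean ± SD of 5 arrays. AK049434 and 2810002D19Rik are lower in CD44KO(HFD) arrays of both tissues, AK039524 is higher in liver, and Duoxa1 is lower in liver and higher in WAT.

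In WAT, limma called 0 of the 456 members tested, beside 0.0398% of all probes (11 of 27654). At an unadjusted p under 0.05 there were 64 members (14.0%), beside 14.9% of all probes. Without WT(HFD) replicate 1, 2 members were called, the first Tcp11l1 probe and AK049434, both 1.80 to 1.88 Mb from Cd44, beside 0.136% of all probes (37 of 27264). With array weights, which give less influence to arrays that fit poorly, 52 of 456 members and 2850 of 27654 probes were called in WAT. The genotypes did not overlap for 9 of the 46 members tested in WAT within 2 Mb (19.57%), beside 6.18% of all probes, and for 15 of 335 from 10 to 20 Mb (4.48%). Without WT(HFD) replicate 1 these counts were 14 of 46 (30.43%), beside 8.22% of all probes, and 19 of 333 (5.71%). In liver, non-overlapping genotypes were found for 10 of 46 within 2 Mb (21.74%), beside 11.7% of all probes.

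No member passed the test in both tissues, beside 0.0214% of the 23354 probes tested in both (5 probes), 2 of which were Cd44 probes. Near Cd44, liver and WAT differences nonetheless mostly had the same sign. Of the 17 probes within 5 Mb that were called in liver and tested in WAT, 17 had the same sign in WAT, beside 61.09% of such probes over the array and 62.18% on the rest of chromosome 2. This was 15 of 17 after normexp correction, quantile normalization or array weights, and 16 of 17 with median scaling, which raised the median WAT difference of all probes from -0.06 to 0.42. From 10 to 20 Mb it was 18 of 27 (66.67%).

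Across the 41 probes within 2 Mb tested in both tissues, the liver and WAT log2 fold changes had a correlation of 0.67, beside 0.14 for 1453 probes on the rest of chromosome 2 and 0.10 for 21373 on other chromosomes. It was 0.72 without WT(HFD) WAT replicate 1 and 0.31 after normexp correction, where that of all probes was -0.13. Probes of 1 gene and probes on the same arrays are not independent, and the few large decreases weigh heavily in it. Genotypes that did not overlap, and moved the same way in both tissues, were found for 7 of the 392 members (1.79%), beside 0.651% of all probes, and for 9 of 390 (2.31%), beside 0.814%, without WT(HFD) WAT replicate 1. The 7 were 2810002D19Rik, the brighter Pdhx probe, AK049434, the first Tcp11l1 probe and, 15.8 to 17 Mb away, 5430417L22Rik, Exd1 and Rpap1.

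**Figure D5:**
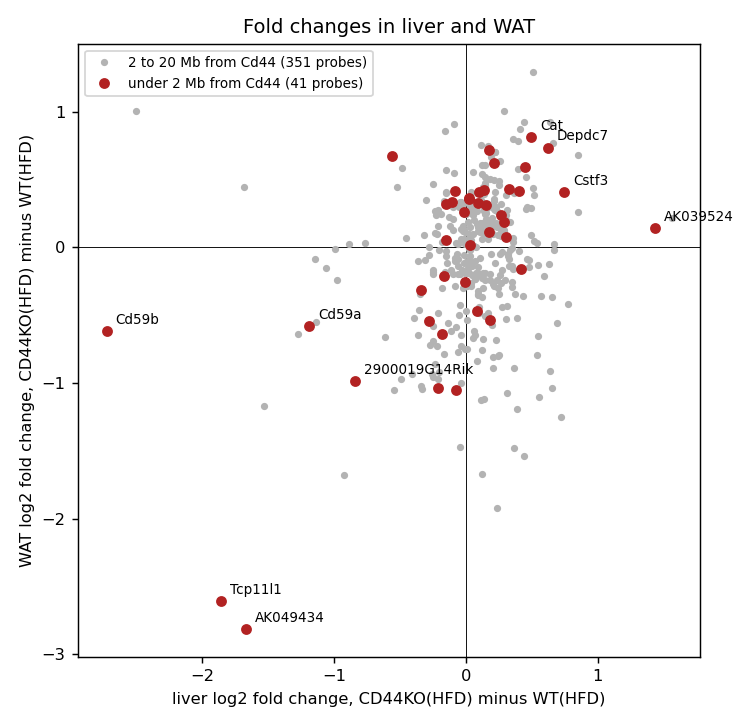
Each point is a member tested in both tissues, with its liver log2 fold change on the x axis and its WAT log2 fold change on the y axis, both CD44KO(HFD) minus WT(HFD); red points lie within 2 Mb of Cd44 and grey points at 2 to 20 Mb. Most red points, among them Tcp11l1, AK049434, Cd59a, Cd59b, Cat and Depdc7, lie in the lower left or upper right of the plot, where both differences have the same sign.

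By function, the calls among members of mitochondrial and peroxisomal metabolism were higher in CD44KO(HFD) liver. Of 23 probes tested for 16 genes, 5 were called (21.7%, beside 13.6% of all probes tested), 0 lower and 5 higher (beside 7.85% higher), 2 of them probes of Pdhx, and the median log2 fold change was 0.23, beside 0.08 over all probes tested. Beside Cat and Pdhx these were Ivd, which encodes the leucine-breakdown enzyme isovaleryl-CoA dehydrogenase (0.66, limma adjusted p = 0.039), and Bbox1, which encodes the last enzyme of carnitine synthesis (0.39, adjusted p = 0.023). Ivd had 2 probes tested, of which 1 was called. In WAT none of the 23 probes was called and their median was 0.27, beside -0.06 over all probes. The 6 hepatocyte markers also had positive differences in CD44KO(HFD) liver, from 0.04 (Apob) to 0.94 (Cps1), with the middle at 0.34. Alb and Apob, both at 0.04, lay below the median of 0.08 over all probes tested. The 6 adipocyte markers were higher in CD44KO(HFD) WAT, from 0.17 (Fabp4) to 1.10 (Lep), with the middle at 0.86. None of these markers was called, and their part in the metabolic group was not tested. Translation and protein turnover genes had 0 lower and 2 higher calls among 18 probes tested in liver (11.1%, beside 13.6%), Eif3m (0.30, adjusted p = 0.039) and Fbxo3, with a median of 0.09. Lipid metabolism genes had 0 calls among 10 probes (beside 13.6%), with a median of 0.05.

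Complement, coagulation and matrix genes had 4 lower and 1 higher call among 14 probes tested in CD44KO(HFD) liver (35.7% in all, beside 13.6% of all probes, and 5.75% lower), with a median of -0.29. The lower ones were Cd59b, Cd59a, Thbs1, which encodes the matrix protein thrombospondin 1 (-1.69 ± 0.37, SE, limma adjusted p = 0.021), and Spint1, which encodes an inhibitor of serine proteases (-0.92, limma adjusted p = 0.0336). F2, which encodes prothrombin, was higher by 0.29 (limma adjusted p = 0.0423). Thbs1 and Spint1 lie more than 15 Mb from Cd44, and the genotypes overlapped for both. The Spint1 value is from 1 of its 2 probes tested, and the other was also lower but not called. In WAT none of the 16 probes of the complement, coagulation and matrix group was called, and their median was -0.15, beside -0.06 over all probes tested.

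Genes of cell division and DNA repair had 3 lower and 1 higher call among 15 probes in liver (26.7% in all, beside 13.6% of all probes, and 5.75% lower), with a median of -0.06. Nusap1, which encodes a protein of the mitotic spindle, fell by 1.14 ± 0.28 (-1.14, SE, limma adjusted p = 0.0297), a call that 4 of 10 reduced sets kept, and the difference was -0.31 after normexp correction (adjusted p = 0.502). Arhgap11a, which encodes a protein of dividing cells, changed by -0.996 (limma adjusted p = 0.0164). Alkbh3, which encodes a DNA repair demethylase, rose by 0.22 (adjusted p = 0.041) on 1 of its 2 probes tested, and the other was not called. Arhgap11a and Nusap1 lie 11 and 16.7 Mb from Cd44. Cell division markers from the rest of the genome moved with them: 5 of the 6 were called lower in CD44KO(HFD) liver, with a median log2 fold change of -1.13 and a summed log2 level of 1.84 to 2.53 on WT(HFD) and 0.458 to 1.66 on CD44KO(HFD) arrays. Each of the 6 was well above background on at least 1 liver array. Their part in these changes was not tested. In WAT, Nusap1 differed by -0.08 (limma adjusted p = 0.886) and Arhgap11a by -0.01 (adjusted p = 0.972).

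Immune and haematopoietic genes had 2 lower calls among 19 probes in liver (10.5%, beside 13.6% of all probes). These were Tyro3, which encodes a receptor tyrosine kinase (-0.39, limma adjusted p = 0.0395), and Trim44 (-0.34, adjusted p = 0.0457). Each had 2 probes tested there, both lower, of which 1 was called. The median of the group was -0.07 in liver, beside 0.08 over all probes tested. In WAT none was called, and the median was -0.31, beside -0.06 over all probes tested. That WAT median was not taken without WT(HFD) WAT replicate 1. Of 7 T cell markers, 5 were called lower in CD44KO(HFD) liver, beside 5.75% of all probes tested. Cd3e (0.12, limma adjusted p = 0.690) and Cd2 (-0.31, adjusted p = 0.293) were not called. The summed log2 level of the 7 was 1.03 to 1.80 on WT(HFD) and 0.637 to 1.12 on CD44KO(HFD) liver arrays. Each marker was well above background on at least 1 liver array. Of 7 macrophage markers tested there, 2 were called lower, Itgax (-2.02, limma adjusted p = 0.0284) and Clec7a (-1.71, adjusted p = 0.0303), with a median of -0.80 and a summed log2 level of 3.06 to 4.46 on WT(HFD) and 3.06 to 4.45 on CD44KO(HFD) arrays, and each of the 8 listed was well above background on at least 1 array. The others tested were not called. Cd68 (-0.55), Msr1 (-0.80) and Mmp12 (-1.86) were lower, while Emr1 (0.50, limma adjusted p = 0.43) and Csf1r (0.07, adjusted p = 0.874) were not. The part of these markers in the immune group and in the complement, coagulation and matrix group was not tested. Of the 54 olfactory receptor probes tested in liver, 2 were called, both higher (3.70%, beside 13.6% of all probes), and of 41 tested in WAT none was.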

How the data were processed

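RNA of 10 livers and 10 WAT samples was hybridised to 1-colour Agilent whole mouse genome arrays. The values deposited by the authors are intensities (gProcessedSignal) from Feature Extraction, version 9.5 per the submitters' notes and 9.5.3.1 per the file headers, with spatial detrending; probe positions are those of build mm7. Intensities were log2 transformed, the array's 75th percentile was subtracted, outlier spots were left out and spots of 1 probe were averaged. The authors' table of processed intensities was identical to these files. Of the members, 540 of 860 probes had a current symbol by accession in the RefSeq table, and the others keep the name in the files.

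Probes entered a tissue's test if 3 or more of the 5 arrays of either genotype marked them as well above background. The genotypes were compared in each tissue with limma 3.58.1 (functions lmFit and eBayes, R 4.3.3), and p-values were adjusted by the Benjamini-Hochberg method over every probe tested. The difference between tissues was an interaction over 20 arrays. Exact permutation tests for single probes used every relabelling of the 10 arrays. Where every array of a group was below background, a fold is given as a bound ("at least"): the brighter group's mean against, per array, the higher of the lowest signal well above background and the probe's own.

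Members with values in the text are the 6 flanking genes, members called the same way in both tissues, the 10 gene names with the largest called changes without overlap, the 5 nearest tested names on each side of Cd44, and the largest changes of the functional lists. Names outside this rule (Fbxo3, Cstf3, Depdc7 and the members not overlapping in both tissues) were picked after their values were seen. The members and lists were chosen with earlier results of these data known. Alternatives were normexp background correction (offset 50), quantile and median scaling, no or a stricter filter on dim probes, replicate or slide blocks, array weights, 1 fit over all arrays, a 10 Mb limit and each array left out. Bounds without WT(HFD) WAT replicate 1 were added after seeing the data. Some items within these counts are not reported here by name.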

Additional observations from a re-analysis of the deposited data

Results flagged for a closer look

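In 84 groups of 5 arrays for the named members, a single array stood far from the others of its group in 10. About 1 in 20 groups would do so by chance, and 5 of the 10 were on the WT(HFD) WAT replicate 1 array, which also differed from its group over the whole array. On that array AK049434 read -1.84 (next -4.82), the first Tcp11l1 probe -1.70 (next -4.45), Elf5 -2.22 (next -7.24), an Slc1a2 probe -2.69 (next -5.62) and the dimmer Cd59a probe 0.147 (next 0.603).

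The other arrays that stood apart were spread over several groups. CD44KO(HFD) WAT replicate 1 read -2.37 for Cd59b (next -2.78) and 3.01 for Duoxa1 (next 2.01). 2900019G14Rik read 1.69 on CD44KO(HFD) liver replicate 4 (next 0.965) and -8.03 on WT(HFD) WAT replicate 3 (next -5.82). The first Mpped2 probe read -3.44 on WT(HFD) liver replicate 4 (next -3.15).

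The change in CD44KO(HFD) mice differed between liver and WAT, by the limma interaction, for Cd59b (-2.11), AK039524 (1.29) and the first Duoxa1 probe (-3.51), each given as liver minus WAT on the log2 scale.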

How the results depend on the processing

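The 57 members called in liver became 9 with normexp background, 26 with no filter on dim probes and 89 with array weights. They became 16 with all 20 arrays in 1 fit and 21 to 75 with an array left out. The 10 Mb limit leaves fewer probes, and 27 were called within it. These were 20 of 65 probes within 5 Mb (30.77%) and 7 of 51 from 5 to 10 Mb (13.73%), beside 13.6% of all probes. The 14 calls in liver within 2 Mb, whose alternatives were chosen after seeing the data, became 5 with normexp, 4 with all 20 arrays in 1 fit and 9 to 13 with an array left out. In WAT, the count of 0 in the region became 1 with quantile normalization and 52 of 456 with array weights. It became 31 of 504 with all 20 arrays in 1 fit and 0 to 2 with an array left out. Over all probes, 2850 of 27654 were called with array weights and 1647 of 28989 with all 20 arrays in 1 fit. Within 2 Mb the count of 0 became 1, 14 of 46, 7 of 51 and 0 to 2 in these settings. The count of 0 for calls in both tissues became 1, 16, 2 and 0 to 2 in the same settings. Over all probes it was 5 with quantile normalization. With array weights, 16 of 392 members stood beside 447 of 23354 probes. With all 20 arrays in 1 fit, 2 of 504 members stood beside 51 of 28989 probes. The 3 interactions became 1 with normexp or median scaling, 5 with the slide as a block, 40 with array weights and 3 to 6 with an array left out. Interaction counts over all probes in these settings are not given here, so these changes have no share beside them. Over all probes tested the calls in liver and WAT were 3358 and 11, and 651 and 39 with normexp, 1027 and 3 with no filter, 4275 and 4 with the slide block, 4859 and 2850 with array weights and 638 and 1647 with all 20 arrays in 1 fit. The cause was not tested.

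The direction changed for Cd59b in WAT with quantile normalization (0.11), for the second Tcp11l1 probe in WAT with normexp (-0.18), the slide block (-0.23) and an array left out (-0.13 to 0.53), and in liver with normexp for the first Tcp11l1 probe (0.026) and the second Mpped2 probe (0.035). None of these had a limma adjusted p under 0.05 there. Dim probes limit the precision, since several CD44KO(HFD) readings were not well above background.

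Replicate numbers were shared between genotypes without a stated pairing. Deviations of same-numbered arrays correlated at -0.04 to 0.42 in liver and -0.21 to 0.09 in WAT. With a replicate block the region had 24 calls in liver, 9 of them within 2 Mb, 0 in WAT and 0 interactions; over all probes there were 1329 in liver and 3 in WAT.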
